A study of Homo sapiens with 6 samples.

Results

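NOX4, HMOX1, TXN and GSR are 4 redox genes that encode, in turn, a producer of hydrogen peroxide, a heme-degrading enzyme, and a member each of the thioredoxin and glutathione systems. They were taken by name from the platform annotation, as 4 of the 14884 genes tested, and each was read by a single probe set. They were chosen by their measured difference between the groups on these same arrays, so their values are given as a description, without a test. Expression was measured on 6 Affymetrix whole-transcript arrays. The cells were U-2 OS, an established human osteosarcoma line, and all had received progerin through a retroviral vector. They were kept for 3 days under puromycin (5 µg/ml) and harvested 4 days post-infection. Progerin is the truncated, permanently farnesylated lamin A of Hutchinson-Gilford progeria. On 3 arrays (wt-progerin) it had no added change, and on the other 3 (S22A-progerin) serine 22 was replaced by alanine. The vector's promoter is not given in the sources used here, and progerin-free cells were not analysed here, so neither group can be set against uninfected U-2 OS. The labels call the replicates independent, and the spread given here is that between arrays.

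Cells keep reactive oxygen within bounds by balancing enzymes that make it against enzymes that remove it. NOX4 is a membrane NADPH oxidase that releases mainly hydrogen peroxide. Unlike most of its relatives it is active without cytosolic organizer subunits, so its output is thought to follow its amount. HMOX1, heme oxygenase 1, is the inducible enzyme that splits heme into biliverdin, carbon monoxide and iron, and it is a classical target of the transcription factor NRF2 and of its competitor BACH1. TXN, thioredoxin 1, reduces protein disulfides with electrons that thioredoxin reductase takes from NADPH. GSR, glutathione reductase, uses NADPH to turn oxidized glutathione back to the reduced form that peroxidases and glutaredoxins use. TXN and GSR are also known NRF2 targets.

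Promoter sequence is shown for TXN and NOX4, which differed in opposite directions, to set the bases just upstream of their start sites side by side. Of the 4 genes, 2 had an entry in the RefSeq promoter table (GRCh38.p14), and these were TXN with 1 start site and NOX4 with 3. For TXN the 250 bases before the start are chr9:110256508-110256757 on the minus strand. For NOX4 they are chr11:89491376-89491625, also minus, for the start site of the 3 with the highest GC content. Both are printed 5′ to 3′ up to the start site, and the capitals mark GC boxes (GGGCGG, on either strand).
TXN: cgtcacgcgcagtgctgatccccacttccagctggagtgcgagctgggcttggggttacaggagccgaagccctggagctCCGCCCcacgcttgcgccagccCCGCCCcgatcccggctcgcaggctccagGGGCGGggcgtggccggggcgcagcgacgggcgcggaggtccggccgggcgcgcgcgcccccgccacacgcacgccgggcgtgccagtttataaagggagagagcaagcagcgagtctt
NOX4: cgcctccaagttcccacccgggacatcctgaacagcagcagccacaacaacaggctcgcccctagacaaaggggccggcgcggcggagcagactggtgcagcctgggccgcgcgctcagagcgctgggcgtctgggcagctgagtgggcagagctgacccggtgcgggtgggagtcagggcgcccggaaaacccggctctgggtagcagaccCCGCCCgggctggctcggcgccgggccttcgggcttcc
The TXN window had 3 GC boxes and 73.6% G or C, and the NOX4 window had 1 GC box and 72.0%. A GC box stood in 42.6% of all 35116 promoter windows of that length in the table. Neither window held the core of the antioxidant response element through which NRF2 acts (TGACNNNGC, both strands, in 10.9% of windows) or an AP-1 site (TGANTCA, both strands, in 6.57%). The other 2 NOX4 windows, with 26.4% and 39.6% G or C, held none of the 3 motifs. These matches describe letters in a short window, and sites farther away were not searched.

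NOX4 was 3.26-fold lower and HMOX1 2.99-fold higher in S22A-progerin, while TXN was 1.13-fold higher and GSR 1.19-fold lower. Each difference is the S22A-progerin mean less the wt-progerin mean, in log2 units, and intervals are 95% intervals from the limma fit over all genes. In bulk RNA, fewer cells of a type and less RNA per cell cannot be told apart. NOX4 read 7.94, 7.80 and 7.77 in the wt-progerin arrays and 6.39, 6.06 and 5.96 in the S22A-progerin arrays. Every S22A-progerin array lay below every wt-progerin array, and the groups were 1.38 apart at their nearest. Mean levels were 7.84 ± 0.089 and 6.13 ± 0.224 (SD, n = 3). S22A-progerin was thus at -1.70 relative to wt-progerin (SE 0.115, interval -1.97 to -1.43), or 3.26-fold lower (2.70 to 3.93). The S22A-progerin values spread over 0.428, against 0.167 in wt-progerin, with replicate 1 the highest in both groups. Of 14884 genes, 6 had a more negative difference.

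HMOX1 read 8.57, 8.69 and 8.70 in wt-progerin and 10.32, 10.22 and 10.16 in S22A-progerin. The groups did not overlap and were 1.46 apart at their nearest, against ranges of 0.132 within wt-progerin and 0.160 within S22A-progerin. Group means were 8.65 ± 0.074 and 10.24 ± 0.081 (SD, n = 3), a difference of 1.58 (SE 0.067, interval 1.42 to 1.74). On a linear scale HMOX1 was 2.99-fold higher (2.68 to 3.34), and 49 genes had a more positive difference. HMOX1 is also abundant in macrophages, and of 8 leukocyte markers 4 were measured. CD68, a lysosomal protein of macrophages that other cells also make, rose by 1.48 (SE 0.071, limma adjusted p = 3.25e-05). TYROBP (0.17), LYZ (0.26) and CD14 (0.18) missed the threshold, and their groups overlapped. The summed log2 level of the 4, of which only CD68 was called, ran from 25.1 to 25.6 in wt-progerin and from 26.9 to 27.7 in S22A-progerin. All arrays were of the U-2 OS line, and a part of any other cell type in the HMOX1 difference was not tested.

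TXN read 10.05, 10.09 and 10.04 in wt-progerin and 10.24, 10.25 and 10.20 in S22A-progerin. The groups did not overlap, though only 0.112 separated the highest wt-progerin from the lowest S22A-progerin array. Group means were 10.06 ± 0.026 and 10.23 ± 0.025 (SD, n = 3), a difference of 0.17 (SE 0.050, interval 0.053 to 0.288), or 1.13-fold. Of all genes, 40.7% differed by more in either direction. Its SDs were 0.026 and 0.025, the narrowest of the 4 genes in S22A-progerin. Its size moved with the scaling of the arrays, to 0.20 with the arrays quantile normalized again and 0.14 with each array centred on its median. The RefSeq table lists 7 TXN pseudogenes, and whether the TXN probes also match those was not checked.

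GSR read 10.70, 10.67 and 10.70 in wt-progerin and 10.57, 10.42 and 10.34 in S22A-progerin. The 3 wt-progerin arrays lay within 0.030 of each other, and the S22A-progerin arrays, all lower, were spread over 0.223. The nearest arrays of the groups were 0.108 apart. Group means were 10.69 ± 0.016 and 10.44 ± 0.114 (SD, n = 3), a difference of -0.25 (SE 0.069, interval -0.41 to -0.089), or 1.19-fold lower. Without S22A-progerin replicate 1, the nearest of that group to wt-progerin, the difference was -0.31, and without replicate 3 it was -0.20. In all, 26.4% of genes differed by more in either direction.

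**Figure D1:**
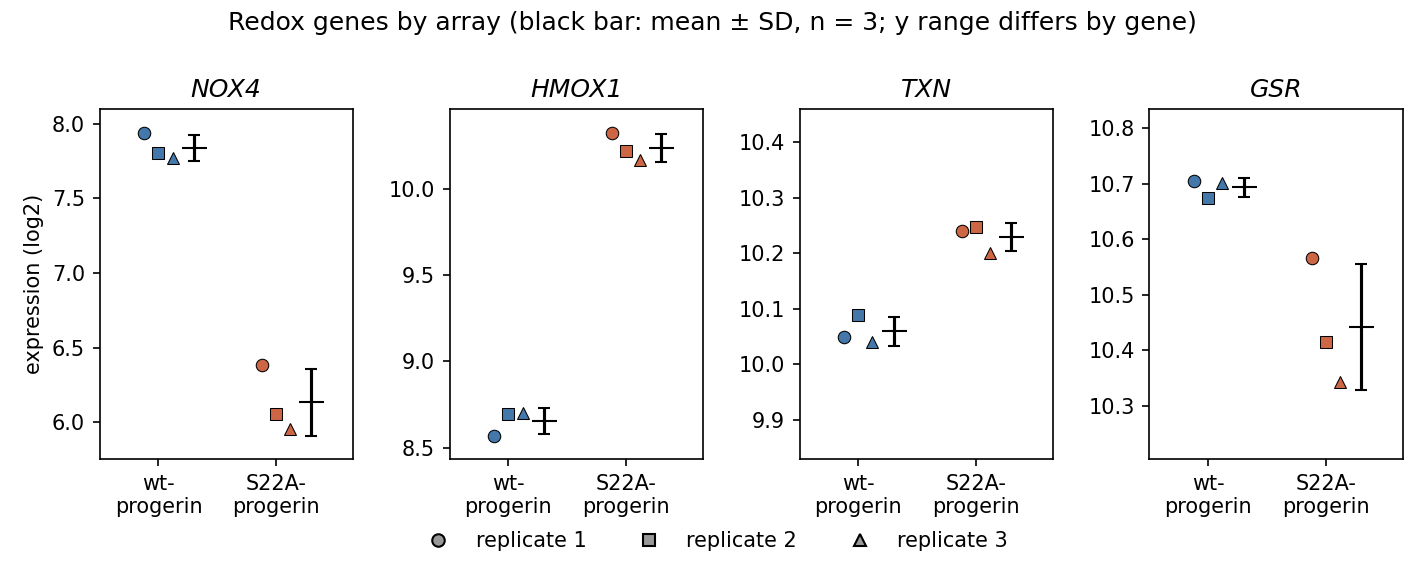
Log2 expression of NOX4, HMOX1, TXN and GSR on each of the 6 arrays, wt-progerin in blue and S22A-progerin in orange, with symbols for replicate number and a black bar for the mean ± SD (n = 3). The groups are separate in every panel, by 1.38 for NOX4 and 1.46 for HMOX1 but by 0.112 for TXN and 0.108 for GSR, and the vertical range differs between panels.

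The groups did not overlap for any of the 4 genes, with 2 higher (HMOX1, TXN) and 2 lower (NOX4, GSR) in S22A-progerin. Among all genes the groups were apart in 42.1%, 18.5% with S22A-progerin higher and 23.6% with it lower, and since the 4 were picked for their differences nothing is read from that count. The large differences moved little with the arrays used. Leaving out each array in turn, NOX4 lay between -1.83 and -1.62 and HMOX1 between 1.54 and 1.62. TXN lay between 0.16 and 0.19 and GSR between -0.31 and -0.20. S22A-progerin replicate 1 was the highest array of its group for NOX4, HMOX1 and GSR, and replicate 3 the lowest for all 4.

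**Figure D2:**
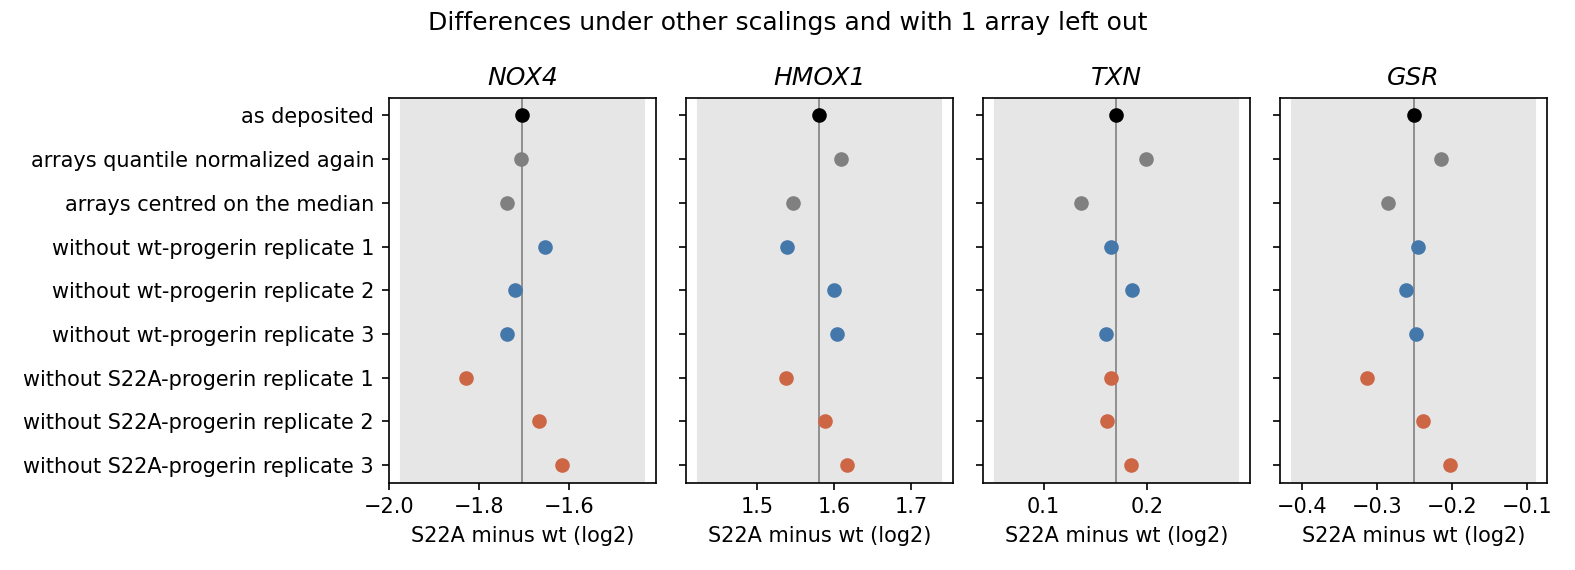
Log2 difference between S22A-progerin and wt-progerin (negative where S22A-progerin is lower) for each of the 4 genes as deposited (black), under other scalings (grey) and without 1 wt-progerin (blue) or S22A-progerin array (orange). The shaded band is the 95% interval of the fit as deposited, every point lies inside it, and no point changes sign. Since the groups do not overlap, leaving out 1 array could not change a sign.

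To set the 4 genes in their pathways, 148 other redox genes were listed in 8 groups by role, and 86 of them were measured. The remaining 62, among them NQO1, GCLM, SOD1, SOD2, FTH1 and BACH1, were not analysed here. Of the 86, 14 rose and 10 fell at a limma adjusted p under 0.05, which is 27.9% called. Over all genes 25.4% passed, 10.8% higher and 14.6% lower, so the share among redox genes was near that of all genes. The median difference was -0.01 among the 86 and -0.00 over all genes. With each array centred on its median the redox counts were 13 higher and 15 lower, while the counts over all genes went from 1601 higher and 2176 lower to 1320 and 2457. The falls numbered 6 without wt-progerin replicate 1 and 5 without wt-progerin replicate 2, and the counts were 14 and 9 without S22A-progerin replicate 3. That array scored -15.5 on the second principal component (11.1% of the variance over all genes), where the other 2 of its group scored 6.51 and 9.29. Differences over 1.5-fold occurred in 6 of the 86 (6.98%) and in 5.92% of all genes.

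**Figure D3:**
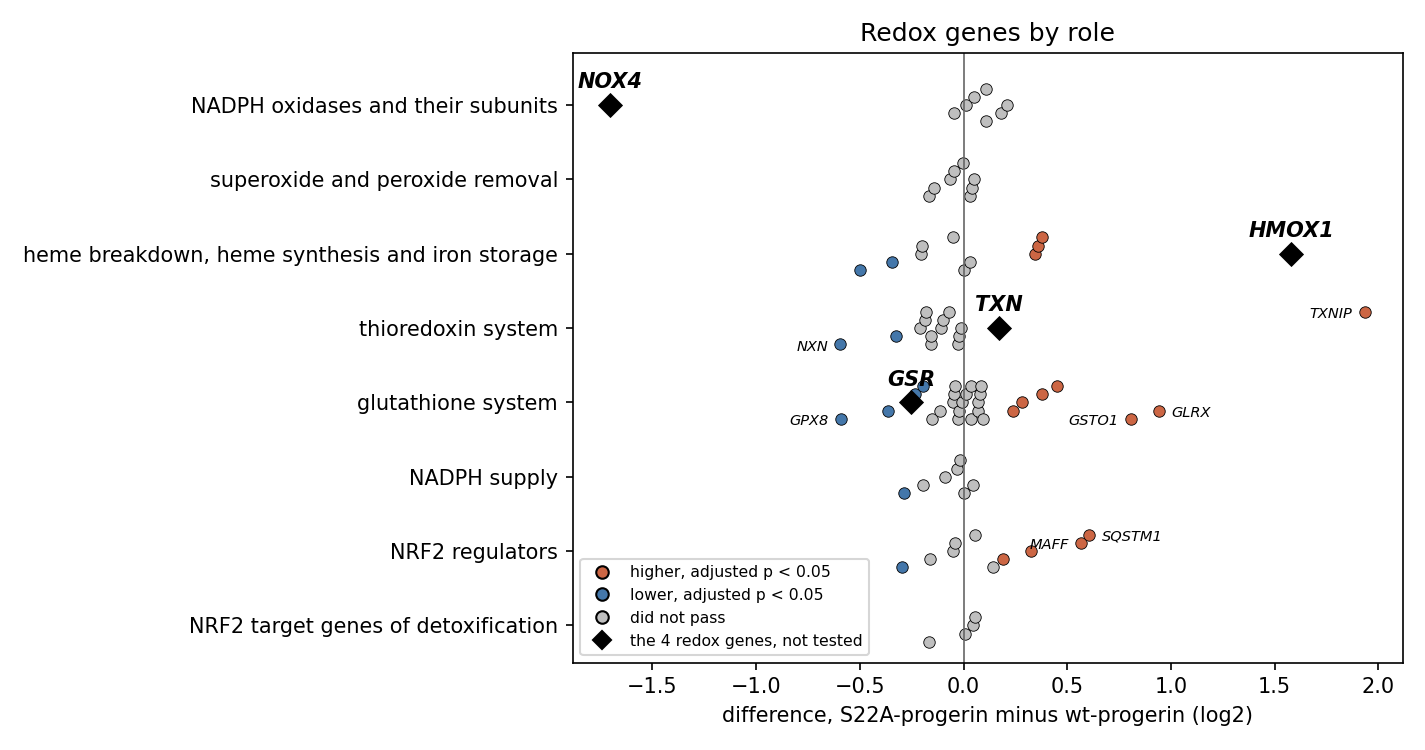
Difference between the groups (log2, positive where S22A-progerin is higher) of each measured redox gene, in rows by role, with orange for genes that passed as higher, blue for lower, grey for genes that did not pass and black diamonds for the 4 redox genes, which were not tested. NOX4 at -1.70 lies apart from the other genes of its row, several of which are dim. TXNIP at 1.93 and GLRX at 0.94 are the highest of the thioredoxin and glutathione rows.

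Among the producers of reactive oxygen, none of the NADPH oxidase genes tested passed, NOX4 itself not being tested. Of 17 listed relatives and subunits 7 were measured (NOX1, NOX3, NOXO1, NOXA1, DUOX1, DUOX2 and DUOXA2), and limma called 0 of them, with 0 at an unadjusted p under 0.05. Their differences ran from -0.05 to 0.21. By mean level NOX1, NOX3, DUOX1, DUOX2 and DUOXA2 stood between percentiles 11.7 and 27.0 of all genes, and NOXO1 and NOXA1 at 46.3 and 56.6. Folds from dim signals are compressed, so a change in the dim ones could be missed. CYBA, the p22phox subunit that NOX4 needs, and POLDIP2, which binds p22phox and raises NOX4 activity, were not analysed here. Among enzymes that remove superoxide and peroxide, limma called 0 of the 8 measured, with 1 at an unadjusted p under 0.05. Catalase (CAT, 0.04) and peroxiredoxin 1 (PRDX1, -0.04), both peroxide-removing enzymes, showed differences smaller than their standard errors. SRXN1, sulfiredoxin, which repairs overoxidized peroxiredoxins and is a known NRF2 target, was at -0.17 and did not pass (adjusted p = 0.060). It passed with the dimmer 50% of genes left out, with a trended robust prior and with median-centred arrays.

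Around HMOX1, the heme genes that passed moved in both directions. Of 10 measured besides HMOX1, 3 rose and 2 fell, where 10.8% and 14.6% of all genes did. HMOX2, the constitutive heme oxygenase, rose by 0.34 (SE 0.063, adjusted p = 0.0072), a 1.27-fold difference beside the 2.99-fold of HMOX1. Its values were 8.61, 8.51 and 8.60 in wt-progerin and 9.00, 8.90 and 8.85 in S22A-progerin. BLVRA, biliverdin reductase A, which acts on the product of heme oxygenase, fell by 0.35 (SE 0.062, adjusted p = 0.0068), and BLVRB (-0.05), the other biliverdin reductase, did not pass. FECH, ferrochelatase, which inserts iron in the last step of heme synthesis, fell by 0.50 (SE 0.085, adjusted p = 0.0054). UROD (0.38), an earlier enzyme of the synthesis, and FLVCR1 (0.36), a heme exporter, rose. The iron storage genes FTH1 and FTL were not analysed here.

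Around TXN, the gene with the greatest difference of the 86 was TXNIP, which encodes the thioredoxin-interacting protein that binds reduced thioredoxin and inhibits it. TXNIP read 6.82, 6.65 and 6.84 in wt-progerin and 8.84, 8.65 and 8.63 in S22A-progerin. It rose by 1.93 (SE 0.083, adjusted p = 1.88e-05), 3.82-fold, beside 1.13-fold for TXN itself. These are values of the brighter of its 2 probe sets. The dimmer, with means of 4.22 and 5.16, gave 0.95 (1.93-fold, adjusted p = 0.032), and the mean of both gave 1.44 (2.71-fold, adjusted p = 5.94e-04). TXNRD1, the cytosolic thioredoxin reductase, was at -0.16, with 8.55, 8.53 and 8.58 in wt-progerin and 8.41, 8.40 and 8.39 in S22A-progerin. Its groups did not overlap, but it did not pass (adjusted p = 0.056), although it did in the same 3 alternatives as SRXN1. TXN2 (-0.10), the mitochondrial thioredoxin, did not pass either. Of 14 measured genes of the thioredoxin system besides TXN, 1 rose and 2 fell, where 10.8% and 14.6% of all genes did. The falls were NXN (-0.59, adjusted p = 0.0037), nucleoredoxin, and TXNDC12 (-0.33, adjusted p = 0.0056), a thioredoxin-fold protein of the endoplasmic reticulum. Called or not, 13 of the 14 had a difference below 0, as had 50.8% of all genes. After repeated quantile normalization 11 of the 14 did, beside 51.3% of all genes. This count was not tested.

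Around GSR, 6 genes of the glutathione system rose and 4 fell, of 26 measured (23.1% and 15.4%, against 10.8% and 14.6% of all genes). GLRX, glutaredoxin 1, which uses reduced glutathione to free proteins from mixed disulfides, rose by 0.94 (SE 0.078, adjusted p = 2.46e-04), 1.92-fold. GSTO1, an omega-class glutathione transferase, rose by 0.81 (adjusted p = 1.17e-04). GPX1, the cytosolic glutathione peroxidase, rose from 8.53 ± 0.062 to 8.98 ± 0.106 (SD, n = 3), by 0.45 (adjusted p = 0.0040). GSS, glutathione synthetase, rose by 0.24 (adjusted p = 0.018) but missed the threshold without wt-progerin replicate 2, wt-progerin replicate 3 or S22A-progerin replicate 1. GLRX3 (0.28), which missed without wt-progerin replicate 2, and GSTM3 (0.38) rose as well. GPX8, a peroxidase of the endoplasmic reticulum, fell by 0.59 (SE 0.073, adjusted p = 0.0014), and GPX3 (-0.36), GLRX5 (-0.20) and GSTA4 (-0.24) fell. GPX3 missed without wt-progerin replicate 1 or wt-progerin replicate 2, GLRX5 without any array but S22A-progerin replicate 3, and GSTA4 without any array but S22A-progerin replicate 2 or after repeated quantile normalization (adjusted p = 0.079). GPX4 (0.01), which reduces lipid hydroperoxides, did not pass.

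NOX4, TXNRD1 and GSR all use NADPH, and 7 genes listed for a direct or indirect role in its supply were measured. They were PGLS, PGD, TKT, TALDO1, NNT, NADK and NADK2, and 1 of the 7 passed (14.3%, against 25.4% of all genes). This was NNT, the mitochondrial transhydrogenase, which fell by 0.28 (SE 0.069, adjusted p = 0.023) and did not pass when any array other than S22A-progerin replicate 1 was left out (adjusted p = 0.057 to 0.075). PGD (-0.09), of the pentose phosphate pathway, did not pass.

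In the list of NRF2 regulators, which also holds NRF2 itself and its relatives, 4 rose and 1 fell of 10 measured. Over all genes 10.8% rose and 14.6% fell. NFE2L2, which encodes NRF2 itself, did not pass (0.05, adjusted p = 0.516), at 8.82 ± 0.028 and 8.87 ± 0.049 (SD, n = 3). KEAP1, the adaptor that marks NRF2 for degradation, read 9.46, 9.60 and 9.44 in wt-progerin and 9.29, 9.16 and 9.16 in S22A-progerin. It fell by 0.30 (SE 0.069, adjusted p = 0.019) and missed the threshold without wt-progerin replicate 2 or S22A-progerin replicate 2 (adjusted p = 0.063 and 0.060). SQSTM1, the autophagy receptor that binds KEAP1, rose by 0.61 (adjusted p = 5.88e-04). MAFF, a small MAF protein that pairs with NRF2 or BACH1 on DNA, rose by 0.57 (adjusted p = 4.66e-04). The NRF2 relatives NFE2L3 (0.33, adjusted p = 0.018) and NFE2L1 (0.19, adjusted p = 0.032) rose, and NFE2L3 missed the threshold without wt-progerin replicate 1, wt-progerin replicate 2 or S22A-progerin replicate 1. NFE2L1 missed without any array but S22A-progerin replicate 3 and with median-centred arrays (adjusted p = 0.085). Of 22 listed detoxification targets of NRF2, 4 were measured (CBR1, CBR3, UGDH and OSGIN1). Limma called 0 of these, with 1 at an unadjusted p under 0.05, and their differences ran from -0.17 to 0.06.

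**Figure D4:**
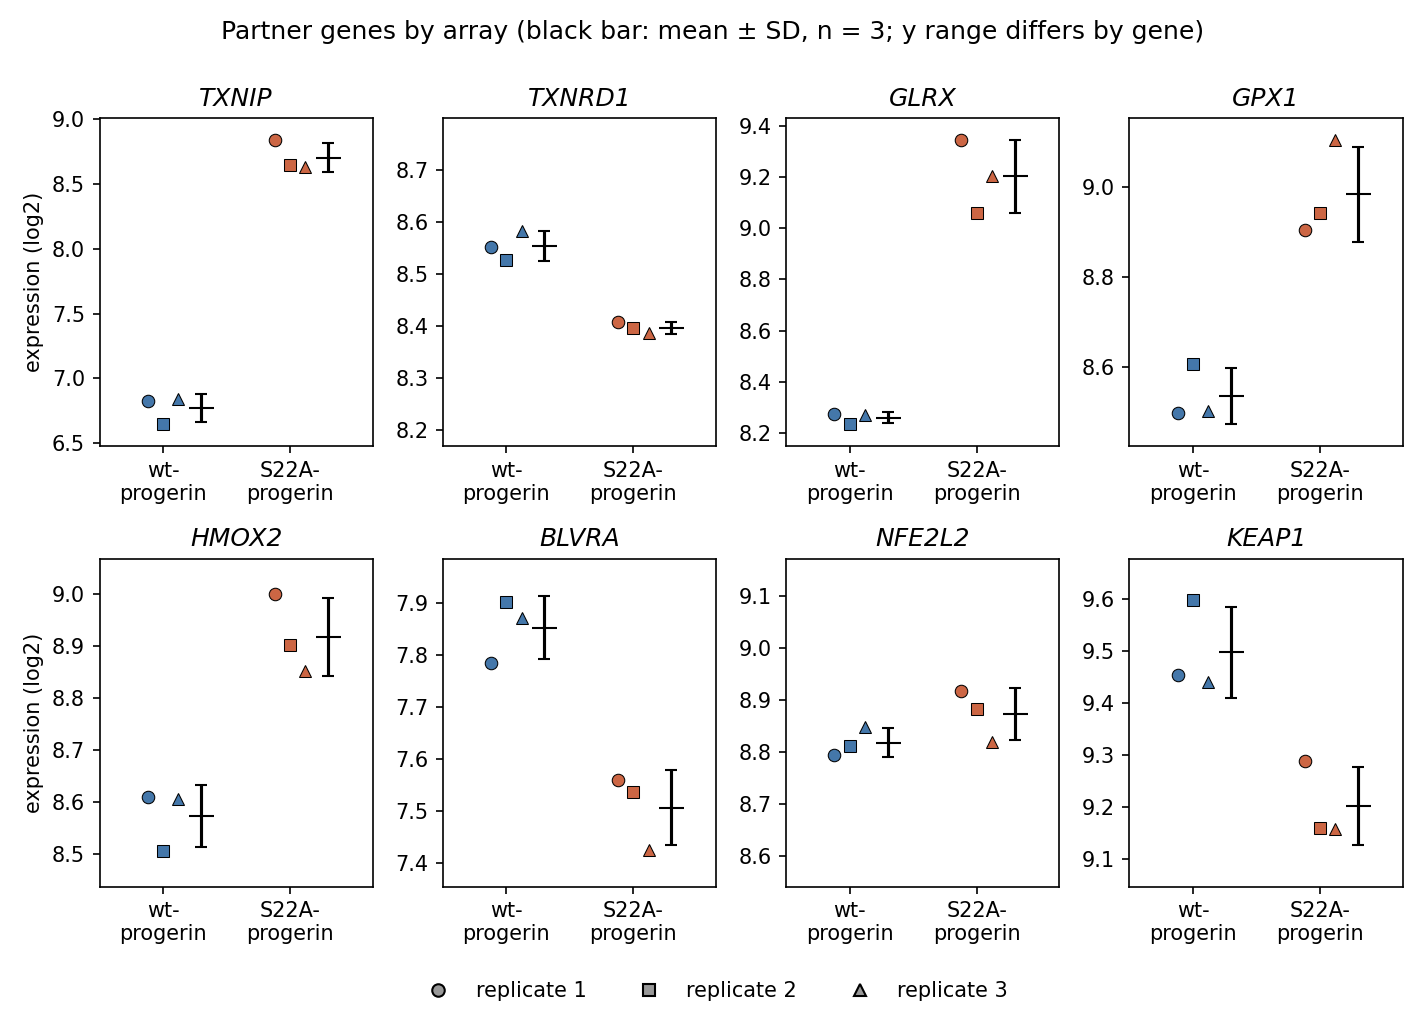
Log2 expression of 8 partner genes on each array, wt-progerin in blue and S22A-progerin in orange, with a black bar for the mean ± SD (n = 3). TXNIP, GLRX, GPX1 and HMOX2 passed as higher and BLVRA and KEAP1 as lower, while TXNRD1 and NFE2L2 did not pass, and the values of NFE2L2 overlap between the groups.

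The genes with the most similar profiles were found by the root mean square distance between log2 profiles, each centred on its own mean over the 6 arrays, a measure that uses the size of a difference as well as its shape. For NOX4 they were JAKMIP2 (distance 0.127), PIEZO2 (0.130) and ACKR3 (0.135), all lower in S22A-progerin by 1.54 to 1.60. For HMOX1 they were CD68 (0.068), CREBRF (0.068) and TRIML2 (0.080), higher by 1.48, 1.71 and 1.66. For TXN they were GPT (0.012), EIF5A (0.013) and NFE2L1 (0.014), and for GSR they were ZNRF3 (0.0072), KLHDC10 (0.010) and GID8 (0.021). The distances of NOX4 were the widest of the 4 sets, and its own S22A-progerin arrays were also the most spread.

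As checks on the samples, array medians over 53617 probe sets were 6.04 in every wt-progerin array. All S22A-progerin arrays were higher, at 6.05, 6.08 and 6.09. Arrays correlated at 0.992 to 0.993 within wt-progerin, 0.989 to 0.993 within S22A-progerin and 0.983 to 0.986 between them. LMNA, which encodes lamin A and progerin, was at 8.14 ± 0.036 and 8.29 ± 0.024 (SD, n = 3) and did not pass (0.15, adjusted p = 0.080). It did pass after repeated quantile normalization (adjusted p = 0.046) and among the brighter 50% of genes (adjusted p = 0.024). Its groups did not overlap, with S22A-progerin higher and 0.090 between the nearest arrays. No value here separates the cell's own LMNA RNA from that of the vector, so equal progerin in the groups was not tested. Of 8 mesenchymal and osteoblast markers, VIM and RUNX2 were measured, with wt-progerin means of 10.89 and 8.77, and RUNX2 fell by 0.74 (adjusted p = 9.60e-04). Of 4 epithelial markers 3 were measured, where KRT18, a keratin, rose by 0.51 (adjusted p = 6.10e-04) and EPCAM (-0.28) and KRT8 (0.06) did not pass. Of 4 endothelial markers 3 were measured (PECAM1, VWF and KDR), and limma called 0 of them, with 0 at an unadjusted p under 0.05.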

How the data were processed

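Gene expression was measured on 6 arrays, 3 per group, matched to samples by the labels. The deposited values are log2 expression which the authors made with RMA. Per the submitters' processing notes the program was Affymetrix Expression Console, with versions not given in the sources used here. RMA corrects background, quantile normalizes and summarises probe sets, and folds from dim signals are compressed. Of 53617 probe sets, 16098 carried 1 gene symbol in the platform annotation and 37519 were not named here. The brightest probe set by mean over the arrays stood for each of 14884 genes.

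Genes were tested with limma 3.58.1 (R 4.3.3), lmFit and eBayes, 2 groups, no covariate, two-sided, Benjamini-Hochberg over all genes, called at an adjusted p under 0.05. All adjusted p-values are limma's. The code was tested on simulated arrays. Alternatives were repeated quantile normalization, median centring, averaged or single probe sets, leaving out dim genes, a trended robust prior, array weights, the replicate number as a block, each array left out, and a threshold of 0.01. The number of arrays limits the precision.

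The 4 genes and the gene lists were chosen with earlier results of these data known. Named are the 4 genes, LMNA, 29 set partners where measured (17 were), up to 3 called members per list by smallest p, and 3 similar profiles per gene, passing over pseudogenes and LOC, LINC, MIR, SNOR, RNU and open reading frame symbols. UROD, FLVCR1, GLRX3, GSTM3, GPX3, GLRX5, GSTA4, the members listed for fully uncalled lists, and the cell type markers were named after their values were seen.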

Additional observations from a re-analysis of the deposited data

How the results depend on the processing

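NOX4, HMOX1, TXN and GSR kept their direction under every scaling tried. A replicate block leaves these differences unchanged, since each replicate number occurs once per group. Leaving out 1 array could not reverse them either, because their groups do not overlap. NOX4 has no value with the dimmer 50% of genes left out, since it is among those. TXN moved by more than its replicate spread with the arrays quantile normalized again (0.20) and centred on the median (0.14). Leaving out 1 array at a time gave 10 to 14 other redox genes higher and 5 to 9 lower, and 1126 to 1553 and 1514 to 2048 over all genes. With the dimmer 50% of genes left out 14 redox genes were higher and 17 lower (1369 and 2365 over all genes), and with the trended robust prior 15 and 17 (1844 and 2645). The cause of these moves was not tested. At an adjusted p under 0.01, 9 redox genes were higher and 5 lower, and 852 and 1226 over all genes. No pairing by replicate number was seen in the values. Same-numbered arrays had deviations correlated at -0.019, -0.055 and -0.0056, and 0 of 6 arrays correlated best with their own number. With the replicate number as a fixed block 12 redox genes were higher and 7 lower (NNT, GSS, GLRX5, GSTA4 and NFE2L1 missed, at adjusted p = 0.056, 0.050, 0.087, 0.066 and 0.090), and 1285 and 1705 over all genes; as a random block 14 and 10, and 1501 and 2043. For 40 single genes, each under up to 15 alternatives, the side of the threshold was kept 539 times, lost 49 times and gained 8 times. Single probe sets were not among these alternatives. The threshold of 0.01 was, and it drops any gene with an adjusted p between 0.01 and 0.05 by definition. There were 0 reversals of a called difference. Uncalled differences near 0 could change sign, as GPX4 did with median-centred arrays (0.01 to -0.02). No background signal or detection call was used, so dim genes cannot be called absent.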

Other observations

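The nearest tested genes on either side of each of the 4 genes, by the RefSeq table of GRCh38.p14, were added after the data were seen and taken by position alone, and of all genes 25.4% passed the test. Beside HMOX1, MCM5, a subunit of the replicative helicase, fell by 0.39 (SE 0.058, limma adjusted p = 0.0032) while HMOX1 was 1.58 higher, and MIR3909 (0.09) did not pass. Beside GSR, UBXN8, a protein of the endoplasmic reticulum membrane, rose by 0.43 (SE 0.070, adjusted p = 0.0043) while GSR was 0.25 lower on the log2 scale, and SMIM18 (-0.02) did not pass. Beside NOX4, TYR, tyrosinase, was at -0.16 and did not pass, and TRIM49 rose by 0.48 (adjusted p = 0.010), though TRIM49 has close copies that its probes may also read. Beside TXN, C9orf152 (0.23, adjusted p = 0.100) and TXNDC8 (-0.04), a thioredoxin of the testis, did not pass. In these 8 neighbours 2 rose and 1 fell, where 10.8% and 14.6% of all genes did. Each neighbour that passed differed in the direction opposite to the gene it is listed beside. This was seen after the values were known, beside genes chosen by their differences, and was not tested. Genes that were not tested may lie between a gene and its listed neighbour.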
